A study of Mus musculus with 12 samples.

Results

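Myeloid cells are made and kept by a small set of transcription factors, and 9 of these were read in 3 mouse cell lines, of which 1 is a microglial line. The set holds Spi1, Cebpa, Cebpb, Maf, Runx1, Fli1, Ikzf1, Sall1 and Mef2c, a list of names with known roles in the lineage, out of the 25128 genes and targets on the array. Each of the 9 had 1 target with 3 probes, so 27 of the 72000 probes carry what follows. The study set out to list the receptor and signaling messages that cell lines in common use make on their own, and it grew 4 separate plates of each line, with 1 single-color NimbleGen array for the RNA of each plate. The plates were labelled AtT20, a line from a mouse pituitary tumor, BV2, a microglial line immortalized with oncogenes, and N18, a mouse neuroblastoma line. All lines were grown in the same medium with serum and antibiotics, received no treatment and carried no transgene named in the labels, and the study states that BV2 was kept under conditions that favor a resting state. Each group is 1 immortalized line and not a tissue, so the spread between its 4 plates, on which the p-values rest, says nothing of other microglia, neurons or pituitary cells. A slide held 4 arrays, and the layout is not given in the sources used here, so slide and line cannot be told apart.

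PU.1, the protein made from Spi1, is an ETS family factor that opens the regulatory regions of macrophage and microglia genes, and it works beside the C/EBP factors, the Runt factor Runx1 and the zinc finger factor Ikaros, from Ikzf1, in the blood progenitors that give rise to these cells. Fli1, another ETS factor, serves blood stem cells, megakaryocytes and endothelium, and c-Maf, from Maf, is a basic leucine zipper factor of tissue macrophages. Sall1 and Mef2c are linked to microglia within the myeloid lineage, but Sall1 also acts in kidney and limb, and Mef2c in muscle, heart and neurons.

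Levels are in log2 units and were set, plate by plate, against 10 seminal fluid genes, which the study took to stand for no expression: a gene's 3 probes were pooled, and the average of the 10 genes on that plate was subtracted. A line was above the threshold for a gene when the mean level of its 4 plates exceeded 2 SD of those 10 genes, a limit of 0.37 for the plates labelled AtT20, 0.56 for BV2 and 0.74 for N18. Markers were read the same way. The microglia markers Csf1r, Itgam, Ptprc and Tyrobp were above the threshold in BV2 (4 of 5), and Aif1 was not. Of 9 neuroblastoma markers 8 passed in N18, all but Nefl, and 4 passed in BV2 and 5 under the AtT20 label, where the neurofilament gene Nefl, named after its values were seen, was at 4.46. Of 6 corticotroph markers only 1 passed on the plates labelled AtT20, the pituitary factor Pitx1, against 3 in N18 and 2 in BV2, while the hormone precursor gene Pomc stayed at 0.29 on the former, below the limit, so these plates are called by their label. Their values also lay closer together, with an interquartile range of 0.38 to 0.78 over the probes of an array, against 1.28 to 1.73 in BV2 and 1.91 to 2.21 in N18. The comparisons with AtT20 depended on how arrays were scaled, and values under other scalings are given beside the factors they move most.

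Of the 9 factors, 8 were above the threshold in BV2, all but Maf. In N18 3 passed (Cebpb, Ikzf1 and Sall1), and on the plates labelled AtT20 4 did (Cebpa, Cebpb, Sall1 and Mef2c). Over all genes and targets the same rule passed 53.3% in BV2, 55.4% in N18 and 35.0% under the AtT20 label. Cebpb and Sall1 were the factors above the threshold in every line, although in N18 Sall1 and Ikzf1 did not pass at 3 SD or against olfactory receptor genes, which left Cebpb alone. Spi1, Runx1 and Fli1 passed in BV2 only, with an exception for Spi1 given below. Between N18 and BV2 the limma fit, with p-values adjusted over all genes and targets, called 8 of the 9 factors lower in N18 and 0 higher, where 21.9% of all genes were lower and 19.0% higher. After quantile normalization the plates of N18 and BV2 did not overlap for these 8 factors, as was the case for 55.4% of all genes. The median difference of the 9 was -1.30 (log2) and that of all genes -0.06.

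**Figure D1:**
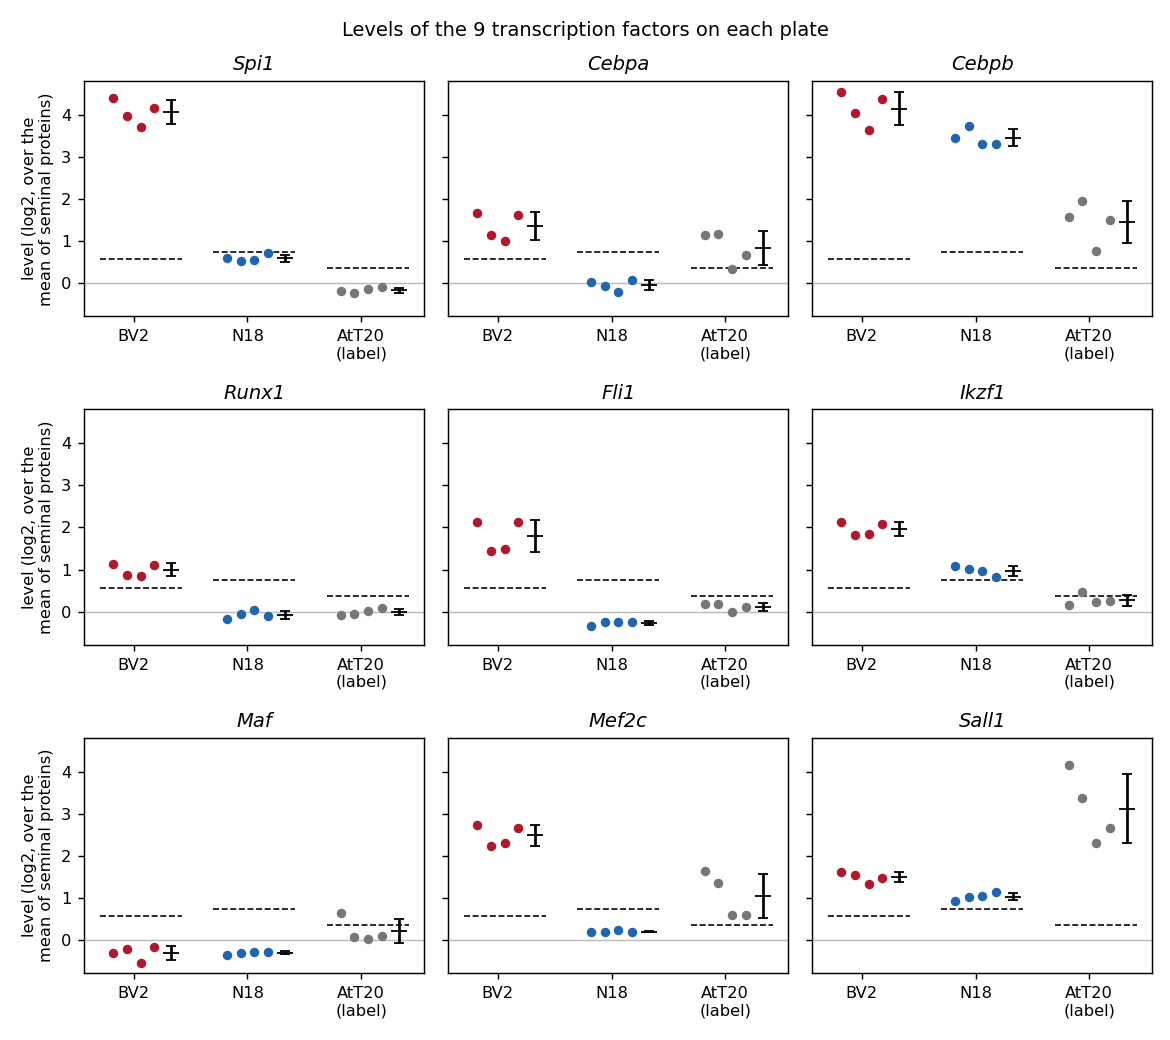
Level of each factor on each of the 12 plates, in log2 units above the mean of the 10 seminal fluid genes, with 1 point per plate, a bar for the mean of each line and a dashed mark at the threshold of that line. Spi1 lies between 3.71 and 4.39 on the BV2 plates and at or under 0.71 on all others, whereas the mean of Maf stays below the threshold in every line.

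Spi1 was the factor with the widest gap between BV2 and the other lines. Its level was 4.39, 3.98, 3.71 and 4.16 on the BV2 plates 1 to 4. On the N18 plates it was 0.60, 0.52, 0.56 and 0.71, and on the plates labelled AtT20 -0.19, -0.23, -0.14 and -0.10. All BV2 plates were high, the other 8 were near or below the controls, and no plates of different lines overlapped. The N18 mean of 0.60 ± 0.08 (SD, n = 4) was just under its threshold, with 2 of the 3 probes above it (means of 0.91 and 0.84) and the other at -0.23. In BV2 the 3 probes had means of 4.03, 3.72 and 4.36, so they lay together there but not in N18, where Spi1 passed the threshold (0.81) when the median of the probes was taken. Because the dimmer lines were below their thresholds, folds are given here and later as lower bounds, taken against the higher of the threshold and the measured level in the dim line, and as the smallest of the bounds with quantile normalization, relative to the seminal fluid genes and with no normalization. By this measure Spi1 was at least 9.9-fold higher in BV2 than in N18 (limma, adjusted p = 4.44e-13) and at least 5-fold higher than on the plates labelled AtT20 (adjusted p = 1.12e-13). Here and later, the adjusted p beside a bound belongs to the limma difference after quantile normalization. The bounds themselves were not tested.

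The other ETS factor, Fli1, was read at 2.12, 1.43, 1.5 and 2.13 on the BV2 plates. It was between -0.34 and -0.24 on the N18 plates and between -0.02 and 0.19 on those labelled AtT20. Only the BV2 plates stood above the controls, and all 3 probes passed there (means of 2.53, 1.58 and 0.69). Fli1 was at least 2-fold higher in BV2 than in N18 (limma, adjusted p = 1.36e-10). Against the plates labelled AtT20 the measured difference was 0.94 ± 0.10 (log2, SE; adjusted p = 2.25e-07), but it fell to 0.32 with no normalization (adjusted p = 0.111), was 1.68 relative to the seminal fluid genes (adjusted p = 1.7e-09), and had a lower bound of 0.07 on the log2 scale.

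Runx1, which is required for the first definitive blood cells, was close to the threshold in BV2. Its level in BV2 was 1.13, 0.88, 0.84 and 1.12, and 2 of its 3 probes passed. On the N18 plates it was between -0.18 and 0.04, and on those labelled AtT20 between -0.08 and 0.08. The BV2 plates were again the high ones, with no overlap, and the other 2 lines overlapped with each other around the controls. Runx1 was at least 1.1-fold higher in BV2 than in N18 (limma, adjusted p = 1.48e-06). With controls from olfactory receptor genes in place of the seminal fluid genes, Runx1 no longer passed the threshold in BV2 (level of 0.74). Against the plates labelled AtT20 it was 0.58 ± 0.11 higher in BV2 (adjusted p = 0.000184), which was 1.01 relative to the seminal fluid genes (adjusted p = 6.33e-09) and turned to -0.36 (adjusted p = 0.069) with no normalization.

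Ikzf1, the gene of Ikaros, a factor of lymphoid and early myeloid cells, was above the threshold in BV2 and in N18, in the latter only at 2 SD of the seminal fluid genes and not at 3 SD or against olfactory receptor genes. The BV2 plates gave 2.12, 1.81, 1.84 and 2.08 and the N18 plates 1.09, 1.01, 0.96 and 0.83. The plates labelled AtT20 gave 0.16, 0.47, 0.22 and 0.24. The lines followed each other in this order with no overlap, and 2 plates labelled AtT20 were above their own plate's limit although the mean was not. Ikzf1 was 2.27-fold lower in N18 than in BV2 (log2 difference of -1.18 ± 0.12, SE; limma, adjusted p = 5.8e-07). It was at least 1.1-fold higher in BV2 than on the plates labelled AtT20 (adjusted p = 1.93e-05), a call that was lost with no normalization (0.33; adjusted p = 0.128), while relative to the seminal fluid genes the difference was 1.69 (adjusted p = 1.01e-09). The probes were uneven. In BV2 their means were 2.78, 1.92 and 0.05, so the last did not rise above the controls in the line where the others were highest. Against the plates labelled AtT20 only 1 probe was called higher in BV2 (2.18). The others were not called (0.01 and -0.08). On the plates labelled AtT20, Ikzf1 was higher than in N18 by 0.39 after quantile normalization (adjusted p = 0.00726), but relative to the seminal fluid genes N18 was the higher by 0.70 (adjusted p = 7.86e-05), so no order of these 2 lines is given.

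**Figure D2:**
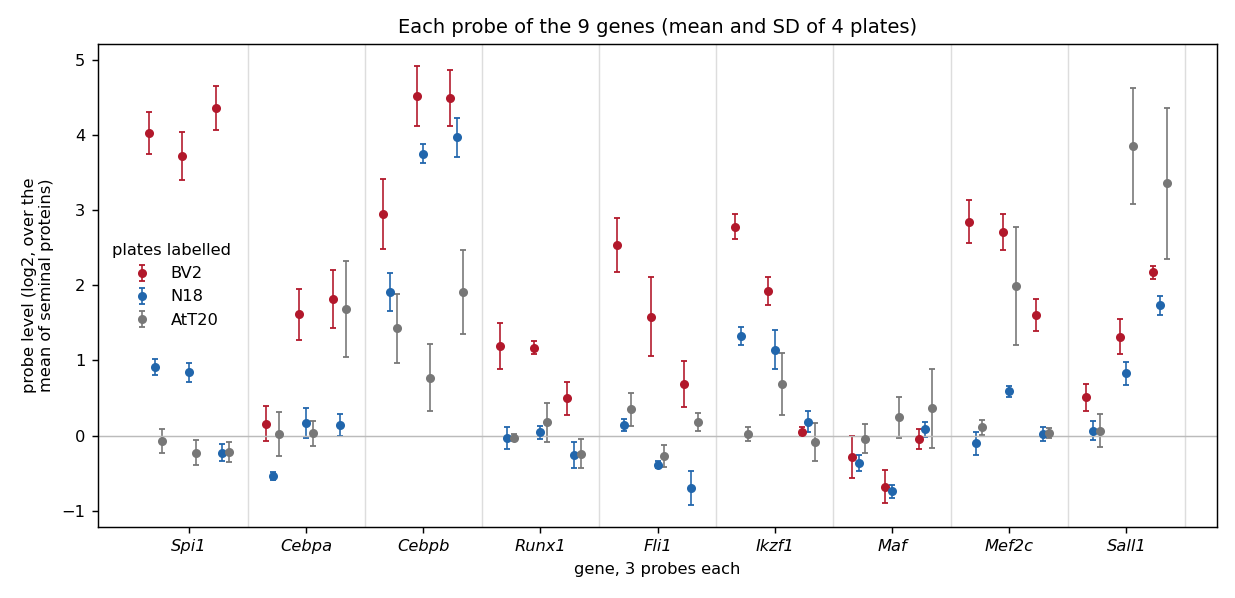
Mean level of each of the 3 probes of each factor in each line, in log2 units above the seminal fluid genes, with error bars of 1 SD over 4 plates. The 3 probes of Spi1 and of Cebpb lie above the threshold together in BV2, whereas 1 probe of Ikzf1, at 0.05, stays at the controls.

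C/EBPα and C/EBPβ, made from Cebpa and Cebpb, are leucine zipper factors of granulocytes and macrophages, and both also act in liver and fat, with Cebpb induced by inflammation. Cebpb was above the threshold in every line. Its level was 4.55, 4.03, 3.64 and 4.36 in BV2 and 3.46, 3.73, 3.32 and 3.30 in N18. The plates labelled AtT20 gave 1.56, 1.96, 0.76 and 1.49, and all 3 probes passed throughout. The BV2 and N18 plates overlapped on this scale, N18 plate 2 lying above BV2 plate 3. After quantile normalization they did not, and Cebpb was 2.69-fold lower in N18 (-1.43 ± 0.12, SE; limma, adjusted p = 4.42e-08). Relative to the seminal fluid genes the difference was smaller, at -0.69 (adjusted p = 0.0458). BV2 was 2.68-fold above the plates labelled AtT20 (1.42 ± 0.12; adjusted p = 1.59e-08), and relative to the seminal fluid genes the difference was 2.70 (adjusted p = 5.23e-08). In that comparison 1 probe of Cebpb was not called (0.08; adjusted p = 0.678), while the others were higher in BV2 (2.65 and 1.29). Between N18 and the plates labelled AtT20 the difference was -0.005, with a 95% interval of -0.25 to 0.25 (adjusted p = 0.974), but relative to the seminal fluid genes N18 was higher by 2.01 (adjusted p = 1.72e-06). The value of -0.005 pools probes that parted. After quantile normalization 1 was lower in N18 (-1.396; adjusted p = 4.43e-07), 1 higher (1.095; adjusted p = 8.07e-05) and the other at 0.001. For 7 genes made by all cells, BV2 minus AtT20 ran from -0.54 (Hprt) to 1.75 (Gapdh). Relative to the seminal fluid genes it ran from 0.52 (Hprt) to 2.68 (Gapdh), both named after their values were seen. The Cebpb differences between these lines lay near the upper end of both ranges.

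Cebpa was found in BV2 and on the plates labelled AtT20. The BV2 plates gave 1.68, 1.15, 1.00 and 1.62 and the plates labelled AtT20 1.14, 1.17, 0.34 and 0.68. N18 lay between -0.20 and 0.07. Plates of the first 2 lines overlapped, and the N18 plates were all lower. Cebpa was at least 1.5-fold higher in BV2 than in N18 (limma, adjusted p = 8.35e-08). The order of BV2 and the plates labelled AtT20 depended on the scaling, since BV2 was lower by 0.53 after quantile normalization (adjusted p = 0.000534) and higher by 0.53 relative to the seminal fluid genes (adjusted p = 0.0112). It depended on the probes as well. On the plates labelled AtT20 the probe means were 0.02, 0.03 and 1.69, so a single probe carried the level, and when the median of its probes was used Cebpa did not pass there. Between BV2 and the plates labelled AtT20, 1 probe was called higher in BV2 (1.01, adjusted p = 0.00119) and another lower (-1.21, adjusted p = 3.02e-06).

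Mef2c, a MADS box factor that is also used in muscle and in neurons, was read at 2.73, 2.25, 2.30 and 2.66 in BV2, with all 3 probes above the threshold. N18 gave 0.19 to 0.24 and stayed at the controls. The plates labelled AtT20 gave 1.64, 1.36, 0.60 and 0.60, which rested on 1 probe (1.99, against 0.11 and 0.04 for the others). The BV2 plates were the highest and did not overlap with those of the other lines on this scale. Mef2c was at least 3.3-fold higher in BV2 than in N18 (limma, adjusted p = 1.21e-09), and on the plates labelled AtT20 it was at least 1.2-fold higher than in N18 (adjusted p = 3.22e-09), though with the median of its probes Mef2c did not pass the threshold there (0.13). Between BV2 and the plates labelled AtT20 the difference was 0.34 ± 0.14 (SE; adjusted p = 0.0316), and the call was lost in 8 of 17 other settings, among them leaving out AtT20 plate 4 (0.19) or any of the BV2 plates 2, 3 and 4 (0.31 to 0.35). It was larger relative to the seminal fluid genes (1.44; adjusted p = 3.71e-06) and with the median of the probes (1.89). Here too the probes parted, 2 being higher in BV2 and 1 lower.

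The sequences before the starts of Runx1 and Mef2c are shown because both genes have starts with and without the letters bound by PU.1, the factor with the widest gap. All their listed starts are printed. RefSeq (GRCm38.p6) gave starts for 6 of the 9 factors, 12 in all, without Spi1, Maf and Fli1. In the 250 bases before each start the letters GAGGAA, the core that PU.1 and some other ETS factors bind, were searched on both strands, beside TTGCNNAA for C/EBP and TGTGGT for RUNX factors. GAGGAA was found in 3 of the 12 windows, and in 23.3% of all 32851 windows of the table. The other motifs were in 0 of the 12, and in 9.6% and 14.0% of all windows. The windows below run 5′ to 3′ toward the start, with capitals for GAGGAA or, on the other strand, TTCCTC. They lie at chr16:92826075-92826324 and chr16:92697330-92697579 (minus strand) and at chr13:83503784-83504033, chr13:83523406-83523655 and chr13:83573357-83573606 (plus strand).
Runx1 start 1: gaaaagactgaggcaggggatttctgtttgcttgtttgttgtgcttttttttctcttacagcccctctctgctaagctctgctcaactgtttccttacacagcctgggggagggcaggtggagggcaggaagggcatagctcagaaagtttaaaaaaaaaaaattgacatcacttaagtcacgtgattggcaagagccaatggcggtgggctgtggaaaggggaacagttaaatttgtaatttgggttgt
Runx1 start 2: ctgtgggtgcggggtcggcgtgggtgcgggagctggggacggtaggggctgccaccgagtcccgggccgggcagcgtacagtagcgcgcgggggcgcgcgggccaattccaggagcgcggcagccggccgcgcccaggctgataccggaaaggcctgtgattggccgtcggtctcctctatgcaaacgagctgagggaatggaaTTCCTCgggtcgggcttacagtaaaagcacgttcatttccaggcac
Mef2c start 1: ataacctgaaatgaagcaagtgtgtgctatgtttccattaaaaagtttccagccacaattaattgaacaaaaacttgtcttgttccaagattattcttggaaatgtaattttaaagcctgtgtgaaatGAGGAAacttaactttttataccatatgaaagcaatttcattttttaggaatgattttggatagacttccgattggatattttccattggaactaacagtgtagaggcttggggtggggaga
Mef2c start 2: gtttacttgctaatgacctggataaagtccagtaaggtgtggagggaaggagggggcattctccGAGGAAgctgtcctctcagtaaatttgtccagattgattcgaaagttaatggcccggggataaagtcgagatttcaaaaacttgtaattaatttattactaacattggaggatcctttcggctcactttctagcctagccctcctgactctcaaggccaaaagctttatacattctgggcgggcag
Mef2c start 3: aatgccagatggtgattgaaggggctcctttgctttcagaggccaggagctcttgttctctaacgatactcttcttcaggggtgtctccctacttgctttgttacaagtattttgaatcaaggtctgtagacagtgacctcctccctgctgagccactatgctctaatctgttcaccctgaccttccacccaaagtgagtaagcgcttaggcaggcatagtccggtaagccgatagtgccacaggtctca
The outer start of Runx1 has no such letters, while start 2 has them 46 to 41 bases before the start. In Mef2c they lie 122 to 117 bases before start 1 and 186 to 181 before start 2, and start 3 has none. The arrays do not tell the starts of a gene apart, so the levels of Runx1 and Mef2c given above stand for all of them, and a match is a description of the sequence and not of binding.

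Sall1, a zinc finger factor that in the myeloid lineage marks microglia, was not highest in the microglial line. It was 4.15, 3.37, 2.30 and 2.65 on the plates labelled AtT20. In BV2 it was 1.61, 1.54, 1.33 and 1.49, and in N18 0.92, 1.03, 1.05 and 1.14. All plates labelled AtT20 were above all others, and the lines did not overlap. Sall1 was 6.08-fold lower in BV2 than on the plates labelled AtT20 (-2.61 ± 0.15, SE; limma, adjusted p = 1.77e-10) and 10.1-fold lower in N18 than there (-3.34 ± 0.15; adjusted p = 9.11e-12). When levels were set against the seminal fluid genes these differences were -1.63 (adjusted p = 4.08e-05) and -2.08 (adjusted p = 1.15e-06). The signal on the plates labelled AtT20 came from 2 probes (3.86 and 3.35), with the other at 0.06. The smaller gap between N18 and BV2 (-0.73 ± 0.15; adjusted p = 0.000808) was not called with no normalization (-0.49; adjusted p = 0.0772) or relative to the seminal fluid genes (-0.46; adjusted p = 0.187).

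Maf was the factor that passed in none of the lines, and none of its probes did. Its level was -0.32, -0.22, -0.54 and -0.16 in BV2 and between -0.35 and -0.27 in N18. The plates labelled AtT20 gave 0.64, 0.08, 0.04 and 0.10, of which plate 1 was above its own plate's limit although the mean was not. BV2 and N18 overlapped and differed by -0.03 (95% interval of -0.42 to 0.35; limma, adjusted p = 0.912). No fold is given for Maf, as the means of all 3 lines were under the threshold. A gene under the threshold is not thereby shown to be silent. Of 7 genes made by all cells 6 passed in each line. The ribosomal gene Rplp0, named after its values were seen, passed in none (0.405 in BV2, 0.18 in N18, -0.20 for the AtT20 label).

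In the comparison of BV2 with the plates labelled AtT20, 6 factors were called higher in BV2 (26.6% of all genes were) and 3 lower, Cebpa, Maf and Sall1 (47.0%), with Maf below the threshold in both. Between N18 and the plates labelled AtT20, 1 factor, Spi1, was called higher (27.8%) and 7 lower (48.6%), though Spi1, and Maf, Runx1 and Fli1 among the 7, were below the threshold in both of these lines. With no normalization the direction of Spi1 turned from 0.40 to -0.63. Relative to the seminal fluid genes 5 factors were lower and 3 higher in N18, Ikzf1 being higher and Runx1 not called (-0.06; adjusted p = 0.558). On that scale 4094 of all 25128 genes and targets were lower in N18 and 15255 higher. These comparisons share the same AtT20 plates. After quantile normalization plates did not overlap for 8 of the 9 factors in each, all but Mef2c in the first and all but Cebpb in the second, where this held for 62.6% and 68.2% of all genes. In them 73.6% and 76.4% of all genes were called, against 40.9% between N18 and BV2, and their median moved with the scaling. The median difference of all genes, BV2 minus AtT20, was -0.23 after quantile normalization, 0.28 relative to the seminal fluid genes and -1.08 with no normalization. For N18 minus AtT20 it was -0.25, 0.54 and -0.86, and for N18 minus BV2 -0.06, 0.18 and 0.15. Of the genes called between N18 and BV2, 46.5% were higher in N18 after quantile normalization and 74.7% and 80.2% under the other scalings. For BV2 against AtT20 the share higher in BV2 was 36.2%, 74.2% and 13.5%, and for N18 against AtT20 36.4%, 78.8% and 24%. Over 17 settings Spi1 was higher in BV2 than on the plates labelled AtT20 by 2.86 to 5.29, and for Sall1 the difference stayed between -3.04 and -1.63.

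**Figure D3:**
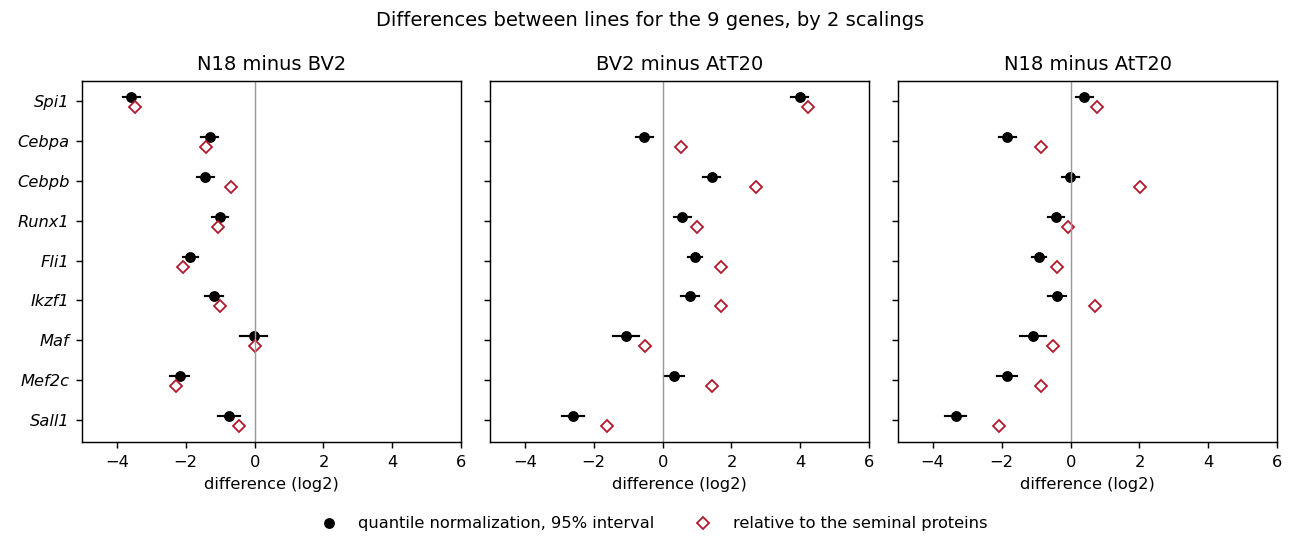
Difference of each factor for each pair of lines in log2 units after quantile normalization, with the 95% interval of the limma fit. For N18 minus BV2, 8 of the 9 intervals lie below 0 and that of Maf spans it (-0.42 to 0.35). Sall1 lies far below 0 in both comparisons with AtT20 as the reference.

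Read one probe at a time, 21 of the 27 probes were called lower in N18 than in BV2 and 0 higher, where 27.6% of all probes were called in either direction. The 6 that were not called were the 3 of Maf and 1 each of Cebpa, Ikzf1 and Sall1. Between BV2 and the plates labelled AtT20, 13 probes were higher in BV2 and 7 lower (62.5% of all probes were called), and between N18 and those plates 4 were higher and 15 lower (65.8%). The 3 probes of a factor share its message and are not replicates of a line. The counts for AtT20 move with the scaling as described above.

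Genes that carry described PU.1 or C/EBP sites were read as a list of 24 with a match (of 25, Cd68 having none). The threshold was passed by 23 of the 24 in BV2, by 8 in N18 and by 4 under the AtT20 label. Between N18 and BV2 21 were lower in N18 (21.9% of all genes were), 0 were higher (19.0%) and 3 did not pass, with a median of -2.45. Lyz2, the lysozyme of macrophages, was at 5.97 ± 0.25 in BV2 and 0.60 ± 0.08 in N18 (SD, n = 4; limma, adjusted p = 1.12e-14). Cd14, a co-receptor for bacterial endotoxin, was at 5.53 ± 0.26 and 0.16 ± 0.11 (adjusted p = 1.29e-13). Csf1r, the receptor on whose signal microglia depend for survival, was at 4.70 ± 0.39 and -0.06 ± 0.12 (adjusted p = 1.19e-14). All 3 were below the threshold in N18. The neutrophil protease gene Elane was below the threshold in both lines (-0.46 and -0.42; adjusted p = 0.885). Csf2ra (-0.16; adjusted p = 0.321; 0.36 relative to the seminal fluid genes) and Mpo (-0.62; adjusted p = 0.0914) did not pass the test and were above the threshold in both lines. Against the plates labelled AtT20, 20 of the 24 were higher in BV2 (26.6% of all genes were) and 1 lower (47.0%), with a median of 2.19. With no normalization 15 were higher and 3 lower, and relative to the seminal fluid genes 23 and 1. Of all 25128 genes and targets, 2940 were higher and 18762 lower in BV2 with no normalization. Relative to the seminal fluid genes 12668 were higher and 4413 lower.

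Of the 5 microglia markers 3, Csf1r, Itgam and Tyrobp, are also on this list. The summed level of the 5 (log2 of the summed linear levels) was 5.94 to 6.70 on the BV2 plates, 2.75 to 2.94 on those of N18, and 2.27 to 2.4 for the AtT20 label. Such a sum grows with the number of genes and is not 0 at the controls. The 10 seminal fluid genes themselves summed to between 3.33 and 3.38, so the sums serve only to compare lines. In N18 2 of the 5 markers, Itgam at 0.80 and Tyrobp at 1.13, were above the threshold, and on the plates labelled AtT20 0 were. Their part in the levels of the factors was not tested, and in RNA from a whole plate fewer cells that make a message and less of it per cell cannot be told apart.

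Other members of the same families did not move as 1 group. The list of these relatives also holds Cbfb, Runx1t1 and Cbfa2t3, which were listed beside the Runx genes without being Runx genes themselves. Of 32 with a match (of 34, Ikzf3 and Mef2b having none), 7 were higher (19.0% of all genes were) and 9 lower (21.9%) in N18 than in BV2, with a median of -0.11. Relative to the seminal fluid genes, or with no normalization, 14 were higher, so these counts depend on the scaling. Under the same scalings 9754 and 7714 of all 25128 genes and targets were higher. Apart from Runx3, the direction of each relative named next was the same under these 3 scalings. Lower in N18 were the ETS factor Ets2 (-2.18 ± 0.17, SE; limma, adjusted p = 1.85e-08), the small Maf protein gene Mafk (-1.49 ± 0.11) and Cebpd (-1.28 ± 0.14), a C/EBP gene that rises in acute inflammation. Higher in N18, and so opposite to the factor of their own family, were Ets1 (0.61 ± 0.10) and Gabpa (0.29 ± 0.11) among the ETS genes, and the Ikaros relative Ikzf4 (0.42 ± 0.10). Also higher, and opposite to Runx1, were Cbfb (0.90 ± 0.14), which encodes the partner that Runx1 needs to bind DNA, and the corepressor gene Runx1t1 (0.73 ± 0.15). The Runx genes Runx2 and Runx3 were named after their values were seen. Runx2 was lower in N18 (-0.69 ± 0.10; adjusted p = 3.05e-05). Runx3 was not called (-0.22 ± 0.12; adjusted p = 0.168), and relative to the seminal fluid genes its difference was 0.36 (adjusted p = 0.12). Sall2 was at 2.31 ± 0.25 in N18 and below the threshold in BV2 (0.17 ± 0.09; adjusted p = 2.71e-07), opposite to Sall1. Maff, another small Maf gene, was higher in N18 by 1.33 (adjusted p = 1.48e-07).

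**Figure D4:**
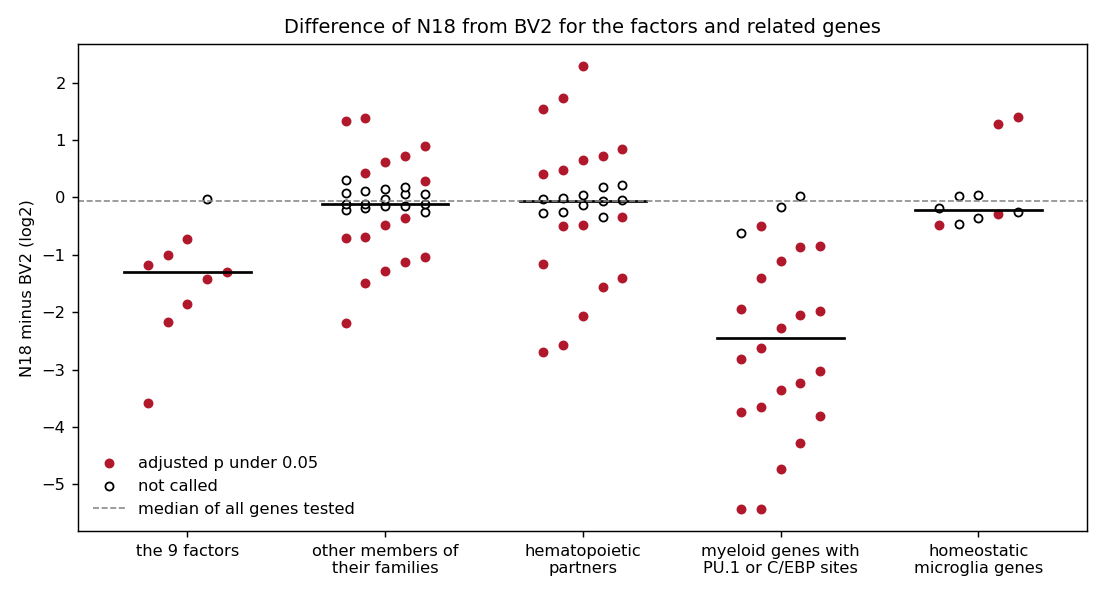
Differences between N18 and BV2 in log2 units after quantile normalization for the 9 factors, the list of their relatives, hematopoietic partner factors, genes with PU.1 or C/EBP sites and homeostatic microglia genes, with 1 point per gene, filled where the adjusted p is under 0.05, and a line at the median of each list. Genes with PU.1 or C/EBP sites have a median of -2.45, whereas the relatives lie on both sides of 0 (median of -0.11).

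Of 28 factors known to work with the 9 in blood cells, 8 were higher and 9 lower in N18 than in BV2, with a median of -0.06. Over all genes 19.0% were higher and 21.9% lower. The counts of the partners moved with the scaling. Apart from Irf8, those named next kept their direction under the 3 scalings. Lower were Junb, an AP-1 subunit (-2.70 ± 0.17, SE; limma, adjusted p = 1.45e-09), Lmo2, a bridging protein of blood stem cells (-2.56 ± 0.11; adjusted p = 1.21e-11), and Id2, an inhibitor of helix-loop-helix factors. Id2 was at 2.68 ± 0.33 in BV2 and at the limit in N18 (0.738 ± 0.05, against a threshold of 0.742). Higher in N18 was Gata2 (2.29 ± 0.19; adjusted p = 5.57e-08), used in blood stem cells and also in sympathetic neurons. The immediate early gene Egr1 was at 2.64 ± 0.28 in N18 and 0.08 ± 0.07 in BV2, and Zfpm1, which encodes the GATA cofactor FOG1, at 2.41 ± 0.14 and 0.09 ± 0.18. Irf8, a partner of PU.1 that microglia need, was named after its values were seen. It was above the threshold in all 3 lines, with 1.05 ± 0.22 for BV2, 1.41 ± 0.15 for N18 and 1.37 ± 0.50 for the AtT20 label, and N18 and BV2 differed, after quantile normalization, by -0.13 (95% interval of -0.50 to 0.25; adjusted p = 0.607). Relative to the seminal fluid genes, the scale of these levels, N18 minus BV2 was 0.36 (adjusted p = 0.147).

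Genes of microglia at rest in the brain were mostly at the controls in BV2. Of 10, 3 were above the threshold there, among them Slc2a5 and Tmem119, and 3 in each of the other lines. Between N18 and BV2, 2 were lower in N18 (21.9% of all genes were) and 2 higher (19.0%), with a median of -0.22. Tmem119, a surface protein of microglia, was lower in N18 (-0.48 ± 0.12, SE; limma, adjusted p = 0.00392), but the call was lost relative to the seminal fluid genes (adjusted p = 0.0606) and with no normalization (adjusted p = 0.234). Siglech was below the threshold in both lines. The secreted protein gene Olfml3 was at 2.21 ± 0.18 in N18 and 0.05 ± 0.24 in BV2. The purinergic receptor gene P2ry12, named after its value was seen, was at 0.32 ± 0.25 in BV2, under the limit.

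For each factor above the threshold in some line, the 3 named genes whose pattern over the 12 arrays was nearest were found from the root mean square difference of centred values, among 12171 genes that were above the threshold in at least 1 line. Nearest to Spi1 were Parvg (0.157), an adhesion protein of blood cells, the lysozyme gene Lyz1 (0.197), a close copy of Lyz2 whose signal the probes may share, and Cd74 (0.205), the invariant chain of class II histocompatibility antigens. Fli1 lay nearest to Gdpd3 (0.115), Elmo1 (0.141), which acts in the uptake of dying cells, and Ripk2 (0.148), a kinase of innate immune signaling. Runx1 was nearest to Nudt13, Atg13 and Sla, and Ikzf1 to Ovol1, Ndufs8 and Pinx1. Nearest to Cebpb were Ctsk (0.087), the cathepsin of osteoclasts, Psen2 and Pitpnm1, and nearest to Cebpa Atp11a, Ecpas and Carmil1. Mef2c was nearest to Ier5, Apex1 and Prkch, and Sall1 to Fgf13 (0.092), a neuronal growth factor homolog, Fbxw4 and H2bc7, which were highest on the plates labelled AtT20. With only 3 lines many genes share a pattern, so nearness is a description of these 12 arrays.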

How the data were processed

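The authors scanned single-color NimbleGen arrays (MM8 design) and deposited 1 log2 intensity value per probe and array. No background subtraction or normalization between arrays is described in the sources used here. Probes were matched to genes through the transcript accession in their names and a RefSeq gene table, used for names alone, which gave a symbol for 69.4% of the 25631 targets. The 3 probes were averaged as linear intensities and brought back to log2. The threshold follows the rule in the study's methods. After quantile normalization of the probes, 1 linear model over the 12 arrays with a trended prior (limma 3.58.1, R 4.3.3) compared the lines. Benjamini-Hochberg adjustment ran over all 25128 genes and targets, and an adjusted p under 0.05 was called. Precision is limited by having 4 arrays of each line.

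The 9 factors and all gene lists were chosen with earlier results of these data known. Named genes were the 9 factors, relatives called opposite to the factor they were listed with, and the 3 nearest genes by pattern. Added to these were at most 3 called genes with the largest difference per list, direction and pair of lines. Others are said to have been named after their values were seen, apart from Aif1, given with the other microglia markers, and genes without a match. Plates with the same number are separate cultures, and their deviations from the line means correlated between -0.105 and 0.319, so they were not paired. No 2 arrays held the same values.

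Alternatives for the threshold were olfactory receptor genes as controls (1064), 3 SD, all 4 plates above, quantile normalization, and the mean of log2 probes or the median of probes. For the differences they were levels set against the seminal fluid genes, no normalization, the median or the log2 mean of probes, normexp correction (offset 50), only genes above the threshold, only the 8 arrays of a pair, a replicate block, and a difference of at least 1. Each plate was also left out in turn. Treating each probe as a feature was added after seeing the data. The limma step was tested on simulated data. Python 3.11.15, numpy 2.4.6, pandas 2.3.3 and matplotlib 3.10.9 made the tables and plots. HEK293 cells, measured on human arrays, and the qPCR values were not used here. A few listed genes enter the counts but have no values of their own in the text.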

Additional observations from a re-analysis of the deposited data

Results flagged for a closer look

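In groups of 4 plates, 2 single values lay far from the other 3 by Dixon's criterion, among 27 groups tested, and chance gives about 1 in 20. The level of Maf on AtT20 plate 1 was 0.64, where the other plates of that label gave 0.04 to 0.10. The level of Fli1 on N18 plate 1 was -0.34, where the other N18 plates gave -0.25 to -0.24. Both means were below the threshold of their line.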

How the results depend on the processing

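Between N18 and BV2, the 8 factors lower in N18 and the 0 higher were found with each plate left out, with a replicate block, and with at least 2 of 3 probes called, and the number lower was 7 with no normalization or relative to the seminal fluid genes and 6 for a difference of at least 1. Of all 25128 genes and targets, 1905 were lower in N18 with no normalization and 3296 relative to the seminal fluid genes. BV2 had 8 factors above the threshold, N18 3 and the plates labelled AtT20 4 with each plate left out. With the median of probes 2 passed on the plates labelled AtT20, and in N18 1 (Cebpb) passed with olfactory receptor controls or at 3 SD. With each plate left out, 5 to 6 factors were higher and 3 lower in BV2 than on the plates labelled AtT20, and 1 was higher and 7 lower in N18. The number higher in BV2 was 2 with no normalization, where 2940 of all genes and targets were, and 2 for a difference of at least 1. For N18 against AtT20, 3 were higher and 5 lower relative to the seminal fluid genes (15255 and 4094 of all genes and targets). Only genes above the threshold gave 0 higher and 4 lower, and a difference of at least 1 also gave 0 and 4. The replicate block kept every count of called factors (8 and 0, 6 and 3, 1 and 7) and changed no other call.

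These differences turned direction. BV2 minus AtT20 was -0.36 for Runx1 with no normalization, and for Cebpa 0.53 relative to the seminal fluid genes and 0.61 with the median of probes. N18 minus AtT20 was -0.63 for Spi1 with no normalization, 0.70 and 0.16 for Ikzf1 relative to the seminal fluid genes and with the median of probes, and for Cebpb 0.62 with no normalization, 2.01 relative to the seminal fluid genes, 0.22 with the median of probes, 0.001 with normexp and between -0.06 and 0.036 with 1 plate left out (above 0 without AtT20 replicate 2 or 4 or N18 replicate 4). N18 minus BV2 for Maf was 0.007 relative to the seminal fluid genes. The cause was not tested. Levels near the controls limit what the arrays show for Maf, for Runx1 and for Spi1 in N18.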

Other observations

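Lymphoid markers were read beside the factors, since Ikzf1 and Runx1 also act in lymphocytes. Of 7, 2 were above the threshold in BV2, 2 in N18 and 5 under the AtT20 label. Cd3g, which encodes a chain of the T cell receptor complex and was named after its values were seen, was at 4.05 ± 0.33 (SD, n = 4) in BV2, 4.14 ± 0.37 in N18 and 3.46 ± 0.31 for the AtT20 label. Cd3e, from the same complex, was at 0.96 ± 0.09, 0.55 ± 0.13 and -0.03 ± 0.08. Of 5 fibroblast markers, 2 passed in BV2 and 3 in each of the other lines.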
